A study of Homo sapiens with 8 samples.

Results

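The ATP-binding cassette (ABC) transporters that export drugs from cells were examined in A549 cells after silencing of NFE2L2, the gene for the transcription factor NRF2. The set held ABCC1, ABCC2, ABCC3, ABCC4, ABCC5, ABCC10, ABCB1 and ABCG2, which encode the pumps MRP1, MRP2, MRP3, MRP4, MRP5, MRP7, P-glycoprotein and BCRP. These 8 genes were listed by symbol, and the rule used no measured value, but the list was drawn up with earlier results of these libraries known. All 8 were found among the 60291 genes of the count tables, and all 8 had at least 10 reads in 1 or more compared libraries and entered the test with 17811 genes in all. ABCB1 did so only through 11 reads in a single NFE2L2 siRNA library.

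The A549 line was established from a human lung adenocarcinoma. It carries an inactivating mutation of KEAP1, whose product normally targets NRF2 for degradation, and all groups share this background. Total RNA was sequenced 48 h after transfection of 250000 cells. Of the 8 libraries, 3 had received 5 nmol of an siRNA duplex against NFE2L2 (duplexes 1, 2 and 3, once each), 4 had received 5 nmol of a control siRNA (duplexes 1 and 2, in 2 transfections each) and 1 was a mock transfection without siRNA. The data therefore describe 1 cell line, and what an NFE2L2 duplex does besides silencing its target cannot be told apart from the variation of single transfections.

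An ABC pump uses the energy of ATP hydrolysis to move its substrate across a membrane. P-glycoprotein and BCRP export many hydrophobic compounds as they are, including anticancer drugs. The MRP proteins of the ABCC family export organic anions, above all compounds that phase II enzymes have joined to glutathione, glucuronate or sulfate. NRF2 pairs with small MAF proteins and binds antioxidant response elements, short DNA motifs near genes of glutathione supply, conjugation and detoxification.

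Reads counted on genes ranged from 35525141 to 41645410 per library, which was 60.3% to 65.6% of the entries in each table, and TMM scaling factors ranged from 0.956 to 1.02. Levels are given as CPM, the counts per 1000000 counts of the scaled library. NFE2L2 itself, the targeted gene, had 38.2 ± 12.1 CPM (SD, n = 3) with NFE2L2 siRNA and 112 ± 4.34 CPM (SD, n = 4) with control siRNA. The levels left by duplexes 1, 2 and 3 were 33.0, 52.0 and 29.7 CPM, and the mock library had 110 CPM. This is a log2 fold change of −1.55 with a standard error of 0.178 (adjusted p = 0.000994). Its adjusted p was 0.0229 against control duplex 1 alone, 0.0258 against control duplex 2 alone and 0.0234 after summing both libraries of a control duplex, none of them under the threshold of 0.01 used throughout. All 6 epithelial markers were detected. The lung markers NKX2-1, SFTPB and SFTPC had at most 3, 1 and 6 reads in any library and SFTPA1 had 0, whereas the other 2 listed lung markers were detected, NAPSA with up to 128 reads and ABCA3 with up to 2834. Blood markers summed to at most 0.360 CPM, fibroblast and endothelial markers to at most 3.83 CPM, and hepatocyte markers to at most 1.83 CPM in any library. In bulk RNA, fewer cells of a type and less RNA per cell cannot be told apart.

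The members differed widely in level before any silencing. Scaled per kilobase of exon (RPKM, CPM per kilobase), ABCC2 was highest in the control siRNA libraries at 98.1 ± 12.9 RPKM (SD, n = 4). It was followed by ABCC3 at 42.0 ± 3.15 and ABCC1 at 34.9 ± 3.08, and then by ABCG2 at 18.9 ± 3.16 and ABCC4 at 18.9 ± 1.25 RPKM. ABCG2 and ABCC4 did not differ beyond their spread. ABCC5 at 4.06 ± 0.149 and ABCC10 at 2.58 ± 0.219 RPKM were lower still, and ABCB1 was close to absent at 0.0168 RPKM. Of 13836 coding genes tested, 285 lay above ABCC2 in the control libraries, 837 above ABCC3 and 1030 above ABCC1. By contrast, 7202 lay above ABCC5, 8528 above ABCC10 and 13749 above ABCB1. 

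With NFE2L2 siRNA, ABCC2, ABCG2 and ABCC1 fell, and no member rose, at an adjusted p under 0.01 in edgeR's quasi-likelihood test with Benjamini-Hochberg adjustment over all 17811 genes. These 3 of 8 members compare with 1.36% of all genes that were lower and 1.39% that were higher by the same test. Over all genes the median log2 fold change was 0.0082, and over the 7 members other than ABCB1 it was −0.62. ABCB1 is left out of this median and of the next counts because it entered the test only through a library of the group in which it was higher, while the other 7 had at least 686 reads in every library. In 4 of the 7 (ABCC1, ABCC2, ABCC3 and ABCG2) all 3 NFE2L2 siRNA libraries lay below all 4 controls, against 11.4% of all genes, and in 1 (ABCC4) they lay above, against 11.9% of all genes. An exact permutation test (two-sided, all 35 divisions of the 7 libraries) gave p = 0.0571 for each of these 5 members, which is the smallest p it can give, so this test cannot reach 0.05. At a threshold of 0.05, ABCC3 and ABCC4 also passed, making 5 of 8 members against 8.17% of all genes. DESeq2 at a threshold of 0.01 called the same 5 members, against 7.38% of all genes. The control libraries are repeat transfections of different control duplexes, and each NFE2L2 duplex is 1 library. The p-values therefore rest on a spread that mixes duplexes with transfections of 1 cell line. The 4 control libraries entered the test as separate samples, although libraries of the same control duplex may be more alike.

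**Figure D1:**
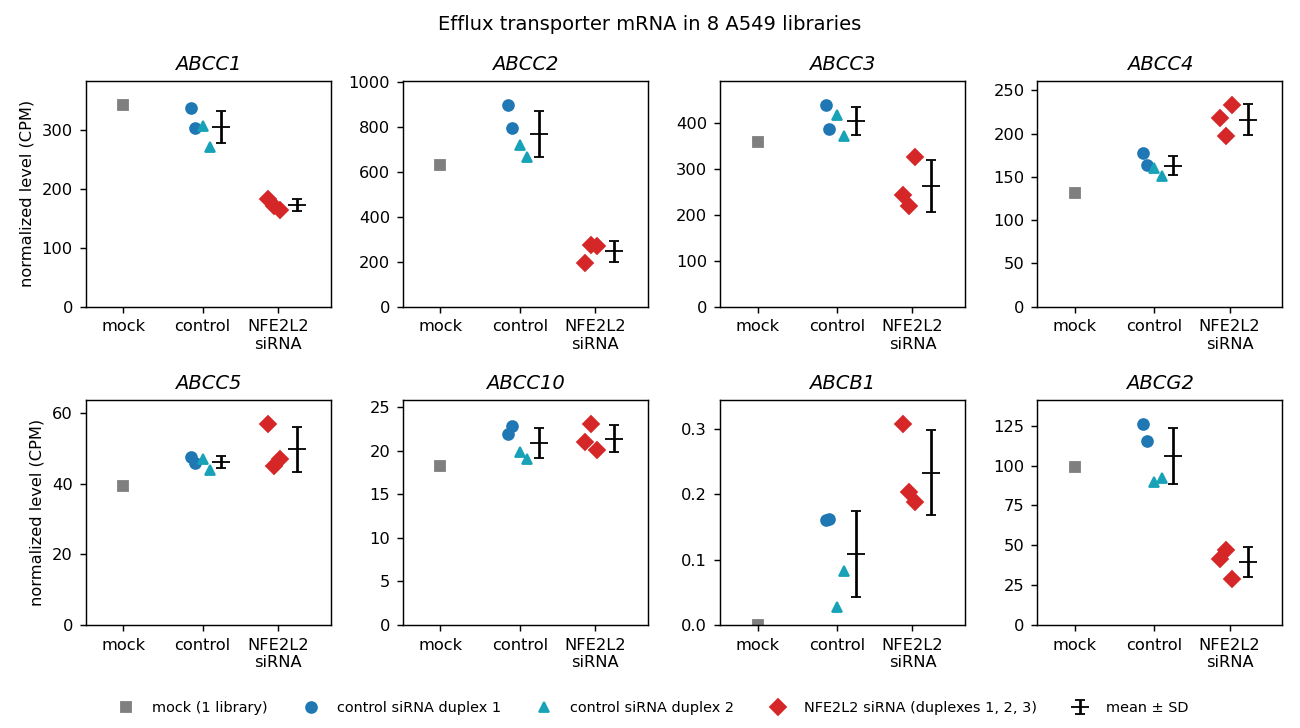
Normalized level (CPM, linear axis from 0) of each member in each of the 8 libraries, with the mean and SD of the 4 control and 3 NFE2L2 siRNA libraries. ABCC1, ABCC2, ABCC3 and ABCG2 lie lower in all 3 NFE2L2 siRNA libraries than in any control, ABCC4 lies higher in all 3, and ABCC5 and ABCC10 overlap. ABCB1 is shown on a scale that ends below 1 CPM.

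ABCC2 (ENSG00000023839.6, plus strand, chromosome 10 from 101542397 to 101612351 in GRCh37) encodes MRP2, an apical pump for glutathione and glucuronide conjugates. It had 33391 and 29585 reads with control duplex 1, 26600 and 23993 with control duplex 2, and 6908, 10790 and 11502 with NFE2L2 duplexes 1, 2 and 3. The groups lay far apart, at 769 ± 101 CPM (SD, n = 4) and 246 ± 45.8 CPM (SD, n = 3). ABCC2 was 3.13-fold lower with NFE2L2 siRNA (log2 fold change −1.64, standard error 0.154, adjusted p = 0.000275). Its adjusted p stayed between 0.000622 and 0.00221 when single libraries were omitted. The mock library had 25121 reads, or 629 CPM, which was below the lowest control at 665 CPM and above every NFE2L2 siRNA library.

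ABCG2 (ENSG00000118777.6, minus strand, chromosome 4 from 89011302 to 89152780) encodes BCRP, which exports many anticancer drugs, sulfated compounds and porphyrins. Its reads were 4701 and 4290 with control duplex 1, 3329 and 3334 with control duplex 2, and 1485, 1862 and 1237 with NFE2L2 duplexes 1, 2 and 3. The NFE2L2 siRNA libraries were all lower, and the libraries of the control duplexes also stood apart from each other. From 106 ± 17.7 CPM (SD, n = 4) the level fell to 39.3 ± 9.34 CPM (SD, n = 3), 2.70-fold lower (log2 fold change −1.43, standard error 0.184, adjusted p = 0.00185). Leaving out single libraries gave adjusted p-values from 0.00150 to 0.00971. The mock library, at 3958 reads or 99.1 CPM, lay within the range of the controls.

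ABCC1 (ENSG00000103222.14, plus strand, chromosome 16 from 16042995 to 16237114) encodes MRP1, a basolateral pump that exports glutathione conjugates and leukotriene C4. It had 12558 and 11288 reads with control duplex 1, 11395 and 9806 with control duplex 2, and 6545, 6713 and 6984 with the NFE2L2 duplexes. The 3 NFE2L2 siRNA libraries were closely alike, at 173 ± 9.58 CPM (SD, n = 3) against 305 ± 26.9 CPM (SD, n = 4) in the controls. ABCC1 was 1.77-fold lower (log2 fold change −0.82, standard error 0.0981, adjusted p = 0.00118), with adjusted p-values from 0.00220 to 0.00755 when single libraries were left out. The mock library had 343 CPM, above the highest control at 337 CPM.

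ABCC3 (ENSG00000108846.11, plus strand, chromosome 17 from 48712138 to 48769614) encodes MRP3, a basolateral pump for glucuronides and bile salts. It had 16334, 14370, 15474 and 13421 reads in the controls and 8701, 8618 and 13874 with NFE2L2 duplexes 1, 2 and 3. All 3 were below the controls once scaled, but the library of duplex 3, at 326 CPM, lay closest to the lowest control at 372 CPM. Its log2 fold change was −0.62 (95% interval −0.93 to −0.31, standard error 0.138, adjusted p = 0.0248), which missed the threshold of 0.01. Without the library of NFE2L2 duplex 3 it was −0.80 with an adjusted p of 0.00614, and over all omissions of 1 library the adjusted p reached 0.0664. DESeq2 gave an adjusted p of 0.00132. The mock library had 358 CPM, also below the lowest control but above every NFE2L2 siRNA library.

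ABCC4 (ENSG00000125257.9, minus strand, chromosome 13 from 95672089 to 95953729) encodes MRP4, which exports cyclic nucleotides, prostaglandins and nucleotide analogue drugs. Its reads were 6594, 6092, 5905 and 5465 in the controls and 7797, 7739 and 9901 with NFE2L2 duplexes 1, 2 and 3. Here the NFE2L2 siRNA libraries were all higher, at 216 ± 18.0 CPM (SD, n = 3) against 163 ± 10.8 CPM (SD, n = 4). Its log2 fold change was 0.41 (95% interval 0.20 to 0.62, standard error 0.0939, adjusted p = 0.0289), short of the threshold of 0.01. The adjusted p lay between 0.0133 and 0.0974 with single libraries left out and was 0.00422 with DESeq2. The mock library had 132 CPM, below the lowest control at 151 CPM.

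ABCC5 and ABCC10, both lower in level than the other ABCC members, had overlapping groups. ABCC5 (ENSG00000114770.12, minus strand, chromosome 3 from 183637722 to 183735727) encodes MRP5, an exporter of cyclic nucleotides. It had 1582 to 1777 reads in the controls and 2041, 1776 and 2007 with NFE2L2 duplexes 1, 2 and 3, a log2 fold change of 0.11 (95% interval −0.12 to 0.34, adjusted p = 0.548). ABCC10 (ENSG00000124574.10, plus strand, chromosome 6 from 43395104 to 43418165) encodes MRP7, a pump known for taxane export. It had 686 to 847 reads in the controls and 752, 908 and 853 with the NFE2L2 duplexes, a log2 fold change of 0.03 (95% interval −0.21 to 0.28, adjusted p = 0.880). A missed threshold does not show that the levels were alike, and differences beyond these intervals are not excluded. The fit behind the intervals took repeat transfections of a control duplex as separate samples. The mock library had 39.46 CPM for ABCC5 and 18.25 CPM for ABCC10, below the lowest controls at 43.82 and 19 CPM and below every NFE2L2 siRNA library.

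ABCB1 (ENSG00000085563.10, minus strand, chromosome 7 from 87132333 to 87342639), the gene for P-glycoprotein, had 6 and 6 reads with control duplex 1, 1 and 3 with control duplex 2, and 11, 8 and 8 with the NFE2L2 duplexes. The mock library had 0 reads, which allows a share of up to 7.595e-06% of its gene counts, for counting error only. The NFE2L2 siRNA libraries were the higher ones, but the difference was not detectable in the test at this depth (log2 fold change 1.07, standard error 0.509, 95% interval −0.07 to 2.20, adjusted p = 0.226).

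**Figure D2:**
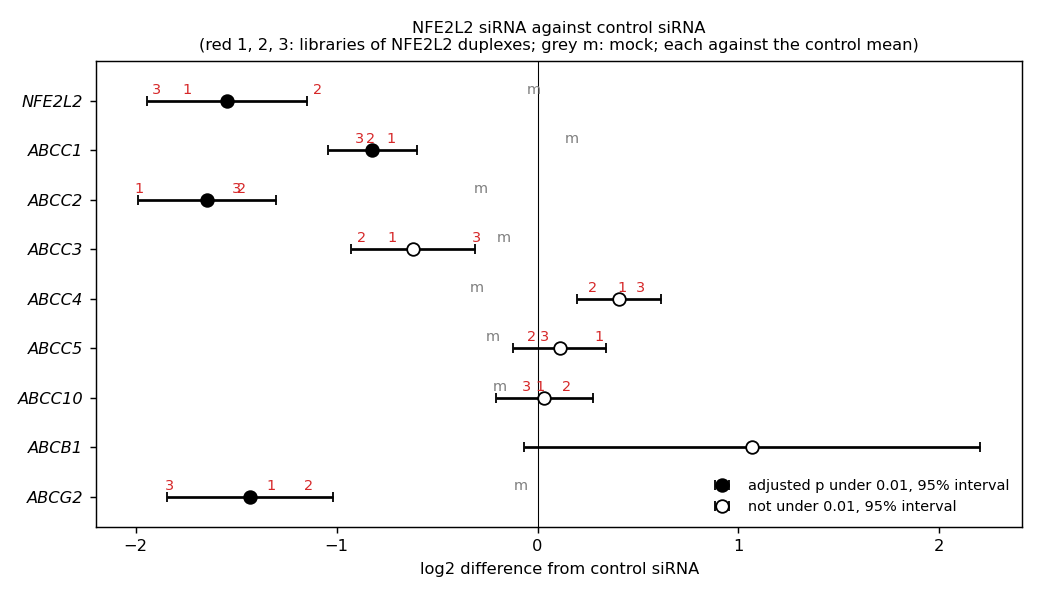
Log2 difference from control siRNA for NFE2L2 and the 8 members. Circles are the edgeR estimates with 95% intervals, filled where the adjusted p is under 0.01, digits are the single libraries of NFE2L2 duplexes 1, 2 and 3, and m is the mock library, each against the control mean. Single libraries are left out for ABCB1, which had 0 to 11 reads. ABCC1, ABCC2 and ABCG2 are filled and lie left of 0, and the duplex libraries of ABCC4 all lie right of 0 while its mock library lies left of it.

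Promoter sequence is shown for ABCC2, the member with the lowest log2 fold change, and for ABCC4, whose 3 NFE2L2 siRNA libraries lay on the opposite side of the controls. Both stretches are the 250 bases before the RefSeq start site on GRCh38.p14, written 5′ to 3′ along the gene, at chr10:99782390-99782639 (plus strand) for ABCC2 and chr13:95301452-95301701 (minus strand) for ABCC4. Capitals mark a match to TGACNNNGC, the core of the antioxidant response element, on either strand.
ABCC2: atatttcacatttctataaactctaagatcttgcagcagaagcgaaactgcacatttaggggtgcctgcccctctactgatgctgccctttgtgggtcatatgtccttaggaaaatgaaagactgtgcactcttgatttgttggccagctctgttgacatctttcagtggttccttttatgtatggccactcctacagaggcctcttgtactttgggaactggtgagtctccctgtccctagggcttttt
ABCC4: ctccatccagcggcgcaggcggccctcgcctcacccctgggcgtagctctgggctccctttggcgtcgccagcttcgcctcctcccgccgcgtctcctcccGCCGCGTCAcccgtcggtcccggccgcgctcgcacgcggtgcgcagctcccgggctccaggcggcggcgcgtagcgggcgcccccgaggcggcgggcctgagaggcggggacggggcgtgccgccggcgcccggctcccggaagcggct

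The RefSeq promoter table, which holds 250 bases before and 50 bases after each start site, had entries for 6 of the 8 members with 12 start sites. ABCC1 and ABCC3 had none. The core was present at 3 of the 12 start sites, in ABCC4, ABCC10 and ABCG2, and in 13.3% of all 35116 promoters of the table. In ABCC4 it lay from 149 to 141 bases before the start on the minus strand of the gene, and in 1 of 2 start sites of ABCC10 from 143 to 135 bases before the start. In 1 of 5 start sites of ABCG2 (window chr4:88159241-88159540, minus strand) it lay from base 2 to base 10 of the transcript. The stretches around the matches in ABCC10 and ABCG2 are shown for comparison with ABCC4, with the match in capitals.
ABCC10: aggttataaaTGACGTTGCactaagggag
ABCG2: gcagcgcttgTGACTGGGCaacctgtgcg
A match to so short a motif was thus present in a member that fell (ABCG2), in a member with higher values that missed the threshold (ABCC4) and in a member whose groups overlapped (ABCC10), and the ABCC2 window held none. A match describes letters, and elements outside these windows were not searched. The xenobiotic response element core GCGTG, found in 36.5% of all promoters, and the GC box GGGCGG, found in 45.0%, were also searched on both strands, and the ABCC2 window held neither.

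The 3 NFE2L2 duplexes left different shares of each mRNA. Duplex 1 left 25.1% of the control mean of ABCC2, against 35.7% and 35.2% for duplexes 2 and 3. For ABCG2 it was duplex 3 that left least, at 27.4%, against 39.2% and 44.7% for duplexes 1 and 2. ABCC1 was held between 53.8% and 60.0% by all 3. ABCC3 stood at 60.3%, 54.3% and 80.8% and ABCC4 at 134%, 121% and 143% for duplexes 1, 2 and 3. NFE2L2 itself was left at 29.5%, 46.6% and 26.6%. Duplex 2, which left most NFE2L2 mRNA, also left most ABCG2 mRNA, but least of ABCC3. Each duplex is 1 library, and differences between duplexes were not tested.

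The control duplexes differed from each other in ABCG2. Control duplex 2 against duplex 1 gave a log2 difference of −0.40 (standard error 0.0647, adjusted p = 0.00468) in a comparison of 2 against 2 libraries that called 3.28% of 17261 genes, and ABCG2 was the only one called of the 7 members tested there. ABCC2 differed by −0.29 (adjusted p = 0.0483), and the absolute differences of ABCC1, ABCC3, ABCC4, ABCC5 and ABCC10 were at most 0.20. Against control duplex 1 alone the log2 fold change of ABCG2 was −1.63 (adjusted p = 0.00997), and against control duplex 2 alone it was −1.21 (adjusted p = 0.0396). ABCC2 had −1.79 (adjusted p = 0.00488) and −1.49 (adjusted p = 0.0110) against duplexes 1 and 2 alone, and ABCC1 had −0.90 (adjusted p = 0.0125) and −0.75 (adjusted p = 0.0327). With 2 controls in place of 4, the estimates kept their sign while ABCC1 no longer passed 0.01 against either duplex. After summing the 2 libraries of each control duplex, ABCC2 passed (adjusted p = 0.00700), whereas ABCC1 and ABCG2 had adjusted p-values of 0.0255.

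The makeup of the efflux transporter mRNA differed between the groups. Summed per kilobase, the 8 members reached 220 ± 22.6 RPKM (SD, n = 4) with control siRNA, 118 ± 7.60 RPKM (SD, n = 3) with NFE2L2 siRNA and 195 RPKM in the mock library. The lowest control library had 195 RPKM and the highest NFE2L2 siRNA library 126 RPKM. ABCC2 made up 43.4% to 46.0% of the sum in the controls and 22.2% to 30.3% with NFE2L2 siRNA. The share of ABCC4 was 8.25% to 9.01% in the controls and 19.8% to 22.7% with NFE2L2 siRNA. A share depends on the sum, which was lower with NFE2L2 siRNA, as well as on the member's own level. The shares of ABCC5 (1.69% to 1.98% and 3.29% to 4.51%) and ABCC10 (1.09% to 1.26% and 1.97% to 2.47%) were also higher, although their groups overlapped in level. ABCC4 itself had 18.9 ± 1.25 RPKM (SD, n = 4) in the controls. With NFE2L2 siRNA, ABCC2 stood at 31.4 ± 5.84, ABCC3 at 27.3 ± 5.83, ABCC4 at 25.02 ± 2.09 and ABCC1 at 19.8 ± 1.096 RPKM (SD, n = 3), and the first 3 of these did not differ beyond their spread. When the longest transcript was used as the length in place of all exons, ABCC3 came first in the NFE2L2 siRNA libraries.

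**Figure D3:**
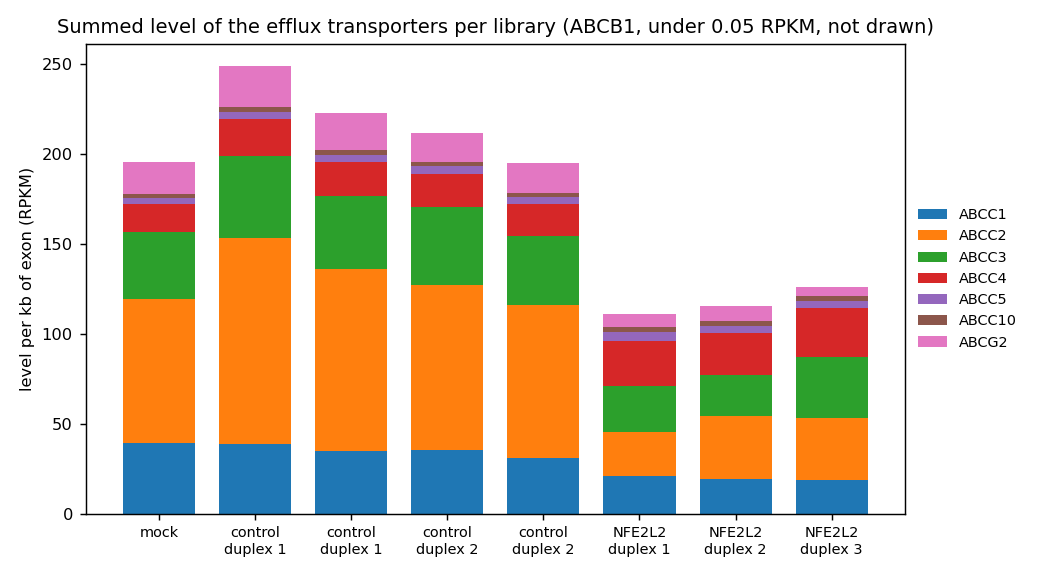
Level per kilobase of exon (RPKM) of 7 members, stacked for each of the 8 libraries; ABCB1 is too low to be drawn. The stacks reach 195 to 249 RPKM in the control libraries, 195 RPKM in the mock library and 111 to 126 RPKM in the NFE2L2 siRNA libraries, and the ABCC2 part is the one that shrinks most.

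Ratios of reads between members within a library do not depend on scaling. Among the 7 members other than ABCB1, 21 pairs were compared by exact permutation over the 35 divisions, for which the smallest p of 0.0571 becomes 0.0706 after Benjamini-Hochberg adjustment over the pairs. In 17 of the 21 pairs the groups did not overlap, each at this smallest p. Pairs share members, so they are not separate results. The pair with the largest difference was ABCC2 to ABCC4. Its mean log2 ratio was 2.23 with control siRNA and 0.17 with NFE2L2 siRNA, a difference of −2.06 (exact permutation p = 0.0571). The log2 ratio of ABCC1 to ABCC2 was higher by 0.83 with NFE2L2 siRNA (exact permutation p = 0.0571), and here too the groups did not overlap. The ratio of ABCC2 to ABCG2 differed by −0.21 (exact permutation p = 0.457), with overlapping groups that ranged from 2.22 to 3.22 with NFE2L2 siRNA and from 2.79 to 2.998 with control siRNA. The ratio of ABCC1 to ABCC3 differed by −0.18 (exact permutation p = 0.629), also with overlap.

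Other ABC genes, listed for comparison, numbered 40, of which 31 were tested. ABCB6 fell, ABCG1 and ABCA3 rose, and 28 did not pass, with a median log2 fold change of 0.11. Over all tested genes, 1.36% fell and 1.39% rose. ABCB6, a porphyrin transporter, had 8.20 ± 1.82 CPM (SD, n = 3) against 25.8 ± 1.03 CPM (SD, n = 4), or −1.66 ± 0.154 as log2 fold change and standard error (adjusted p = 0.000269, and 0.0130 against control duplex 2 alone). ABCG1, a cholesterol exporter and relative of ABCG2, had 36.9 ± 7.06 against 16.0 ± 2.28 CPM, higher by 1.21 on the log2 scale (adjusted p = 0.00206). With control duplex 1 alone, duplex 2 alone or the duplexes summed, ABCG1 did not pass (adjusted p = 0.0391, 0.0420 and 0.0342). ABCA3, a lipid transporter of surfactant-producing cells, was higher by 0.66 on the log2 scale (adjusted p = 0.00274). Its adjusted p rose past 0.01, to as much as 0.0172, on omission of NFE2L2 duplex 3 or of any 1 control library. None of the 4 tested relatives in the ABCC family passed, and ABCC6, which lies next to ABCC1, had −0.12 (adjusted p = 0.738). CFTR had the largest estimate of these relatives, 1.42 (adjusted p = 0.0706), on few reads. It had 8 to 16 reads in the controls and 20, 21 and 64 with NFE2L2 duplexes 1, 2 and 3. The other ABC genes with the highest level per kilobase were ABCE1, ABCF2 and ABCD3, at 36.0, 27.9 and 20.0 RPKM in the controls, with log2 fold changes of −0.41, −0.37 and 0.00 (adjusted p = 0.0373, 0.151 and 0.998). ABCC2 was thus higher per kilobase in the controls than any other ABC gene tested.

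**Figure D4:**
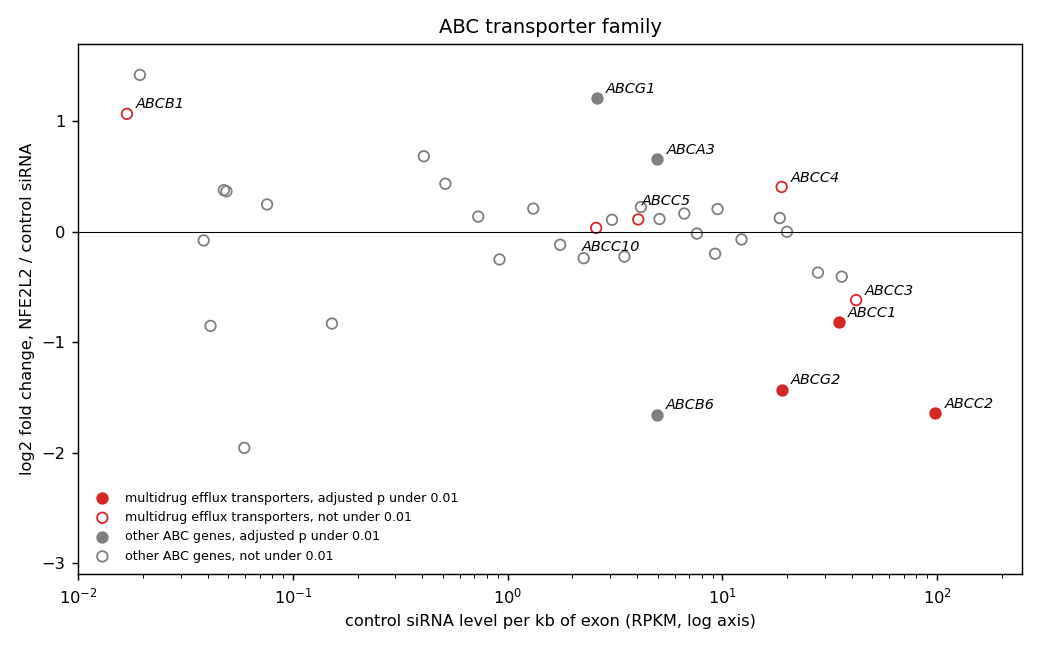
Log2 fold change (NFE2L2 siRNA against control siRNA) of every tested ABC gene against its mean control level per kilobase of exon (RPKM, log axis). Members are red and other ABC genes grey, filled where the adjusted p is under 0.01. ABCC2 is the rightmost point, at 98.1 RPKM, and lies below 0 together with ABCG2, ABCC1 and ABCB6, while ABCG1 and ABCA3 are the filled points above 0.

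Genes of glutathione supply and breakdown, of glutathione conjugation, and of glucuronidation and sulfation were then read from the same test. By it, 1.36% of all tested genes fell and 1.39% rose, the shares to set beside each list. Of 10 genes listed under glutathione supply, 5 fell and 0 rose, with a median log2 fold change of −0.67. The list also holds breakdown of glutathione, so the 5 are not all genes that supply it. They were SLC7A11, the cystine carrier of the cystine-glutamate exchanger (−3.09), GCLM and GCLC, the subunits of glutamate-cysteine ligase (−2.52 and −2.03), GSR, glutathione reductase (−1.46), and CHAC2, which degrades glutathione (−0.79). GSS, glutathione synthetase, had −0.02 (adjusted p = 0.914). CHAC2 had an adjusted p of 0.00641 but missed the threshold on omission of NFE2L2 duplex 3 or of any 1 control library, with adjusted p up to 0.0299. Among 14 tested genes of glutathione conjugation, MGST1, a microsomal transferase, fell with 120 ± 22.4 against 301 ± 10.8 CPM (log2 fold change −1.33, adjusted p = 0.000282). MGST1 missed the threshold with control duplex 2 alone (adjusted p = 0.0144) and with the duplexes summed (0.0116). The other 13 did not pass, and GSTP1, an abundant cytosolic transferase, had −0.55 (adjusted p = 0.0106).

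In glucuronidation and sulfation, 5 of 12 tested genes fell and 0 rose, against 1.36% and 1.39% of all tested genes. The list's median log2 fold change was −0.51. UGDH, which makes the glucuronate donor, had 265 ± 19.3 against 773 ± 65.9 CPM (log2 fold change −1.54, adjusted p = 2.77e-05). UGT1A7, UGT1A6 and UGT1A1, glucuronosyltransferases, had −2.05, −2.11 and −2.44 at 5.93, 2.02 and 0.339 CPM in the controls. The UGT1A genes share exons, so how reads divide among them is uncertain. SULT1A1, a sulfotransferase with near-identical copies, had −1.04 (adjusted p = 0.00317). Single omissions ended the calls of UGT1A1 (any library, adjusted p up to 0.0396), UGT1A6 (NFE2L2 duplex 3 or the second control duplex 1 library, up to 0.0178) and SULT1A1 (control duplex 1 libraries or the first of duplex 2, up to 0.0169). UGT1A1, with 2 to 3 reads in the NFE2L2 siRNA libraries, entered the test only through the controls, where it had 10 to 16. The count of 5 and the list median include UGT1A1, so both rest in part on a gene admitted by the group in which it was higher. Of the 11 genes of these 3 enzyme lists that fell, GCLC, GCLM, UGDH and UGT1A7 also passed against either control duplex alone and with the duplexes summed. GSR and SLC7A11 missed the threshold against control duplex 2 alone (adjusted p = 0.0130 and 0.0105), and CHAC2, UGT1A1, UGT1A6 and SULT1A1 missed it in all 3 settings. Members and enzymes were compared with the same control libraries, so their changes share those controls.

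**Figure D5:**
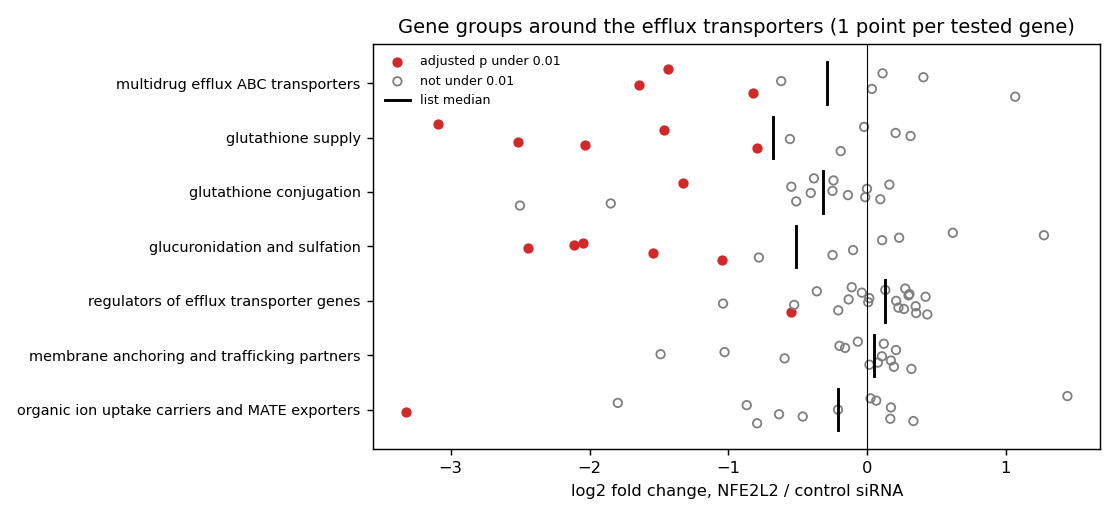
Log2 fold change of each tested gene in the members and in 6 further gene lists, with a bar at each list's median and red points at an adjusted p under 0.01. The medians are −0.29 for the 8 efflux transporters with ABCB1, −0.67 for glutathione supply, −0.32 for glutathione conjugation and −0.51 for glucuronidation and sulfation. They are 0.13 for regulators, 0.05 for anchoring partners and −0.21 for organic ion carriers. UGT1A1 and SLC47A2, which entered the test only through the controls, are part of the medians of their lists.

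The genes beside the members did not share 1 direction. Of 16 nearest coding neighbours, 14 were tested, 1 fell and 1 rose, with a median log2 fold change of −0.09. The shares over all tested genes were 1.36% lower and 1.39% higher. CEP20, 60512 bp from ABCC1 and a centrosomal protein gene, had −1.03 (standard error 0.0990, adjusted p = 0.000307, with 0.0140 against control duplex 2 alone and 0.0131 with the duplexes summed). DNMBP, 22982 bp from ABCC2 and the gene of a guanine nucleotide exchange factor, had 0.58 (standard error 0.0983, adjusted p = 0.00744), opposite in sign to ABCC2. DNMBP missed the threshold, with adjusted p up to 0.0367, without NFE2L2 duplex 2 or 3 or any 1 control library. CUTC, on the other side of ABCC2, had −0.56 (adjusted p = 0.0355), and CACNA1G, 7302 bp from ABCC3 on the same strand, had −1.64 (adjusted p = 0.0102). ABCB4, the neighbour and closest relative of ABCB1, had too few reads for the test. Reads were counted with strand, so the opposite-strand genes that overlap members do not add to the counts of the members. On the same strand, RNU6ATAC31P and the pseudogene ENSG00000251285 overlap ABCG2, and each had 0 reads in all 8 libraries.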

How the data were processed

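Total RNA libraries of A549 cells were prepared with a strand-specific kit after removal of ribosomal RNA. Per the labels and the submitters' processing notes, the authors aligned reads to hg19 with HISAT 0.1.6 and deposited counts per GENCODE v19 gene from HTSeq 0.6.0 (reverse strand), without normalization. Samples were grouped by their titles. Entries assigned to no gene were left out of library sizes. Gene types, positions and exon lengths came from GENCODE v44 on GRCh37, which held 55538 of the 60291 identifiers, and promoters came from RefSeq. The 3 NFE2L2 siRNA and 4 control libraries were compared with edgeR 4.0.16 in R 4.3.3 (TMM, glmQLFit, glmQLFTest, two-sided) for genes with at least 10 reads in 1 library, adjusted by Benjamini-Hochberg, with 0.01 as threshold. The standard error was taken as |log2 fold change| divided by √F, and intervals use the degrees of freedom of the fit. The mock library was described, not tested. RPKM divides CPM by the union of exons in kilobases. Counts were also simulated for the 3 against 4 comparison with 17382 genes. There edgeR recovered 100% of 100 genes with a log2 change of 1 and of 100 with a log2 change of 2. It made 3 false calls. The simulated counts held no differences between duplexes. The recovery does not carry over to the measured libraries. In edgeR, CACNA1G (log2 fold change −1.64, adjusted p = 0.0102) and HNF4A (−1.04, adjusted p = 0.0456) missed the threshold there. A missed threshold therefore does not exclude differences of these sizes. The estimate of CACNA1G depended on the control duplex, at −2.00 against duplex 1 alone and −1.17 against duplex 2 alone. Alternatives were DESeq2 1.42.0, limma-voom (limma 3.58.1), other scalings, filters, control sets and thresholds, and omission of each library. Named genes were all members and NFE2L2, up to 5 genes past the threshold per list, nearest coding neighbours, overlapping genes, the 3 other ABC genes of highest level, and the 3 coding genes most like each member with a mean of at least 50 reads; those of ABCC5 are not reported here. GSS, GSTP1, ABCC6 and CFTR, and the regulators and carriers given as not passing, were named after their values were seen. Members and lists were chosen with earlier results of these data known.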

Additional observations from a re-analysis of the deposited data

How the results depend on the processing

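No paired analysis was possible because library numbers name duplexes with NFE2L2 siRNA and repeats of a duplex with control siRNA. Over 19 alternatives, log2 fold changes lay between −1.79 and −1.49 for ABCC2, −1.63 and −1.21 for ABCG2, −0.90 and −0.75 for ABCC1, −0.80 and −0.52 for ABCC3 and 0.33 and 0.47 for ABCC4. ABCC10 was reversed against control duplex 1 alone (−0.075) and lay between −0.037 and 0.080 with single libraries left out. The number of members past the threshold, 3, became 5 with DESeq2, 5 at a threshold of 0.05, 1 with the control duplexes summed and 0 against control duplex 2 alone, with fewer samples in the last pair, and was 3 to 4 with single libraries left out. The number of all genes, 491, became 1314 with DESeq2, 1456 at 0.05, 1019 with a filter of 1 read, 772 with the mock library added to the controls, 120 and 59 against control duplexes 1 and 2 alone (80.0% and 89.8% lower, against 49.5%) and 78 with the duplexes summed (96.2% lower). With single libraries left out it ranged from 163 (without the second control duplex 1 library) to 915 (without NFE2L2 duplex 2), so the background shares move with these choices. Between the control duplexes, DESeq2 called 2 members and a threshold of 0.05 gave 2, in place of 1. No share of all genes is given for this comparison in these settings, so these counts cannot be read against a background. The cause of the moves between settings was not tested. Limits are the single library per NFE2L2 duplex, the few reads of ABCB1, and mRNA as the only readout.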

Other observations

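Among 21 tested regulators of efflux transporter genes, CEBPB, a leucine zipper transcription factor, fell and 20 did not pass, with a list median of 0.13. By the same test 1.36% of all genes fell and 1.39% rose. CEBPB had 95.02 ± 7.26 CPM (SD, n = 3) with NFE2L2 siRNA and 139 ± 10.1 CPM (SD, n = 4) with control siRNA (log2 fold change −0.55, adjusted p = 0.00870). Without NFE2L2 duplex 2 or 3, or any 1 control library, CEBPB missed 0.01, with p up to 0.0402. The NRF2 relative NFE2L1 had 0.01 (adjusted p = 0.978). AHR, the dioxin receptor, had 0.43 (adjusted p = 0.0943) and, without the library of NFE2L2 duplex 1, 0.60 (adjusted p = 0.00601). HNF4A, a nuclear receptor of liver and gut, had −1.04 (adjusted p = 0.0456), and the receptors NR1I2 and NR1I3 (PXR and CAR) had too few reads for the test. Of 14 genes for proteins that anchor or traffic the pumps, 0 passed in edgeR, with between 0 and 1 over the alternatives and with EZR, RDX and MSN, the ezrin, radixin and moesin genes, at 0.19, −0.20 and 0.02.

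Of 13 tested organic ion carriers, 1 fell, against 1.36% of all tested genes. This was SLC47A2, with 10 to 12 reads in the control libraries and 0 to 2 reads in the NFE2L2 siRNA libraries. It entered the test only through the controls, the group in which it was higher, so the call and the fold rest on few reads (log2 fold change −3.32, adjusted p = 0.00911, up to 0.0399 without NFE2L2 duplex 2 or 3 or any 1 control library). The exporter gene SLC47A1 had −0.63 (adjusted p = 0.0144), and the list median was −0.21.

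As a description over the 8 libraries, which share the same transfections and depth, the coding genes whose log2 CPM had the highest Pearson correlation with ABCC2 were CREG1 (0.995), AKR1B15 (0.995) and TM4SF20 (0.993), with log2 fold changes of −1.14, −2.70 and −3.46. For ABCC1 they were FAM20B (0.988), TBC1D14 (0.986) and AIFM2 (0.986), and for ABCC4 they were RNF103 (0.992), KLF3 (0.986) and FZD6 (0.981). For ABCG2 they were HSPD1 (0.998), GHITM (0.994) and CHORDC1 (0.993), genes of which HSPD1 had a log2 fold change of only −0.27 (adjusted p = 0.0740) beside −1.43 for ABCG2. For ABCC3 they were LRP4 (0.974), GPALPP1 (0.973) and EBAG9 (0.973). ABCC10 had PPP6C (0.959), PRELID2 (0.954) and TMEM41A (0.952). The pool held 11915 coding genes.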
